A study of Mus musculus with 6 samples.

Results

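The transcriptome of normal adult liver was described from 3 wild-type (WT) mice, without any contrast to another genotype. The members were the 3 libraries labelled WT, out of 6 libraries in the series. The other 3 came from males of the same background that lack Zpbp2 and were not analysed here. Each WT library came from the liver of a 12-week-old C57BL/6J male, and the labels name 1 library per animal and no treatment, diet or hour of collection. Poly(A) RNA was selected from 250 ng of total RNA, converted with a directional kit and sequenced from both ends for 100 cycles on a HiSeq. Of 37991 gene IDs in the count table, 21546 had a count in at least 1 WT liver and 11675 reached a CPM of 1 (counts scaled to 1000000 per library) in each of the 3. These 11675 genes are called expressed below.

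The liver makes most proteins of blood plasma, stores and releases glucose and lipid, turns ammonia into urea and clears drugs and bile acids. Most of its mass is hepatocytes, arranged between portal and central veins in zones with different enzymes. Kupffer cells, sinusoidal endothelial cells, stellate cells and bile duct cells make up most of the rest. A small group of transcription factors, among them HNF1, HNF4A and C/EBP proteins, is known to hold hepatocyte genes on, and an internal clock and the feeding state set the daily level of many others.

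Total counts were 51596616, 52955687 and 37904891 in WT replicates 1, 2 and 3, and 19127 to 19717 genes were detected per liver. A gene with no count could still have given 3 counts, which is 0.0568 to 0.0792 CPM. WT replicate 1 stood apart from the others. Its CPM differed more than 2-fold from WT replicate 2 in 281 expressed genes (2.41% of them) and from WT replicate 3 in 202 (1.73%), while replicates 2 and 3 differed so in 48 (0.411%). The median absolute log2 difference per gene was 0.19, 0.17 and 0.11 in the same order of pairs. The chi-square per gene was 13.9 for the closest pair, above sampling noise, so none of the 3 was the same library deposited again. WT replicate 1 also held skeletal muscle transcripts. Of a list of 22 muscle genes chosen after the values were seen, the summed level was 283 CPM in WT replicate 1 and 33.0 CPM in each of the other two, where Neb alone made up 24.1 and 22.5 CPM. Acta1, skeletal muscle actin, had 2069, 3 and 0 counts, and Ckm, muscle creatine kinase, had 1043, 1 and 0. The part of such transcripts in the results below was not tested, and spread between animals is given with and without this library.

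Tissue identity was checked first. All 16 hepatocyte markers were expressed, with summed levels of 127393, 120154 and 122325 CPM. All 15 periportal markers and all 15 matched pericentral markers were present as well. The highest periportal ones on the length-adjusted scale (TPM) were Ass1, an enzyme of the urea cycle, at 3255 ± 146 TPM (mean ± SD, n = 3 livers, here and below) and Cyp2f2, a cytochrome P450, at 2207 ± 260 TPM. Cyp2e1, which oxidizes ethanol, stood at 5181 ± 491 TPM and Glul, glutamine synthetase, at 824 ± 31.9 TPM among the pericentral ones. Male identity was also plain. The 4 Y-linked genes on the list were expressed, Ddx3y at 82.1, 87.9 and 78.0 CPM and Eif2s3y at 56.2, 55.8 and 52.7 CPM, and Xist, the RNA of the inactive X, had 3, 7 and 2 counts. Of 22 genes known to be higher in male mouse liver 21 were expressed, and of 21 known to be higher in females 2 were.

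Cells other than hepatocytes left a smaller mark. The 18 Kupffer cell and macrophage markers were all expressed and summed to 1248, 1213 and 1035 CPM. Complement component C6, which the complement list also holds, made up 359, 520 and 430 CPM of that. Without C6 the sums were 889, 693 and 605 CPM, and 16 of the 17 remaining markers were highest in WT replicate 1, as were 39.3% of all expressed genes. Cd5l, a protein that macrophages secrete, was at 106, 76.7 and 61.7 CPM. Endothelial markers were expressed in 19 of 19 cases and summed to 659, 475 and 494 CPM, with 17 highest in WT replicate 1 (39.3% of all expressed genes). Clec4g, a lectin of sinusoidal endothelium, was at 50.8, 38.7 and 38.6 CPM, and Eng, a co-receptor of the TGF-beta family, was at 81.7, 59.97 and 61.7 CPM. Stellate and fibroblast markers were expressed in 18 of 18 cases with sums of 532, 424 and 492 CPM, led on the TPM scale by Ecm1 and Dcn, both of the extracellular matrix. In whole tissue, more cells of a type and more RNA per cell cannot be told apart.

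Bile duct cells, lymphocytes and granulocytes were near the lower limit. Of 13 bile duct markers 6 were expressed, led by Spp1, osteopontin, at 75.3 ± 11.5 TPM. T and NK cell markers summed to 9.88, 6.73 and 8.11 CPM, with 1 of 20 expressed, which was Cd4. The highest of them per length was Trbc2, a T cell receptor constant region, at 1.44 ± 0.721 TPM. B and plasma cell markers were expressed in 3 of 14 cases, which were Ighm, an immunoglobulin constant region at 11.1, 5.42 and 6.39 CPM, Cd22 and Bank1. Igkc, another constant region, was at 2.86, 1.21 and 0.977 CPM and missed the limit in WT replicate 3. Neutrophil and mast cell markers were expressed in 1 of 13 cases, the mast cell receptor Kit, and S100a9 and S100a8, the abundant neutrophil calcium-binding proteins, stayed between 0.303 and 0.560 CPM. Markers of mesothelium were led by Gpm6a and Upk3b at 1.19 ± 0.0262 and 1.12 ± 0.528 TPM, and neural ones by Syt1 at 3.94 ± 1.01 TPM. Of 26 markers of pancreas, gut, muscle, fat, kidney and lung 1 was expressed, the elastase Cela1 at 11.4, 27.4 and 22.4 CPM. The whole list summed to 121, 29.3 and 26.8 CPM. In WT replicate 1 most of this therefore came from members that missed the limit in at least 1 liver. None of 12 testis and sperm genes was expressed, and the highest per length was Sycp3, of meiotic chromosomes, at 0.328 ± 0.131 TPM. Zpbp2, the gene deleted in the other mice of the series, is one of these and had 4, 13 and 7 counts.

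Counts were strongly concentrated. Albumin (Alb, ENSMUSG00000029368), the main carrier protein of plasma, alone took 7.64%, 6.68% and 7.05% of counts. The 20 most abundant genes took 22.6 ± 0.101%, and the 100 most abundant 40.6 ± 0.226%. In each liver 26 genes made up 25% of counts, and 211 to 218 genes made up 50%. At the other end, 3816 genes between 1 and 10 CPM together held 1.76% of counts. Most expressed genes, 6413 of 11675, lay between 10 and 100 CPM and held 22.4%. Just 3 genes passed 10000 CPM, and they held 10.7%. These curves lay nearly on top of each other in the plot of abundance by rank. Protein-coding genes took 98.9 ± 0.0125% of counts, and the ribosomal RNAs of the mitochondrial genome took 0.351 ± 0.0667%.

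**Figure D1:**
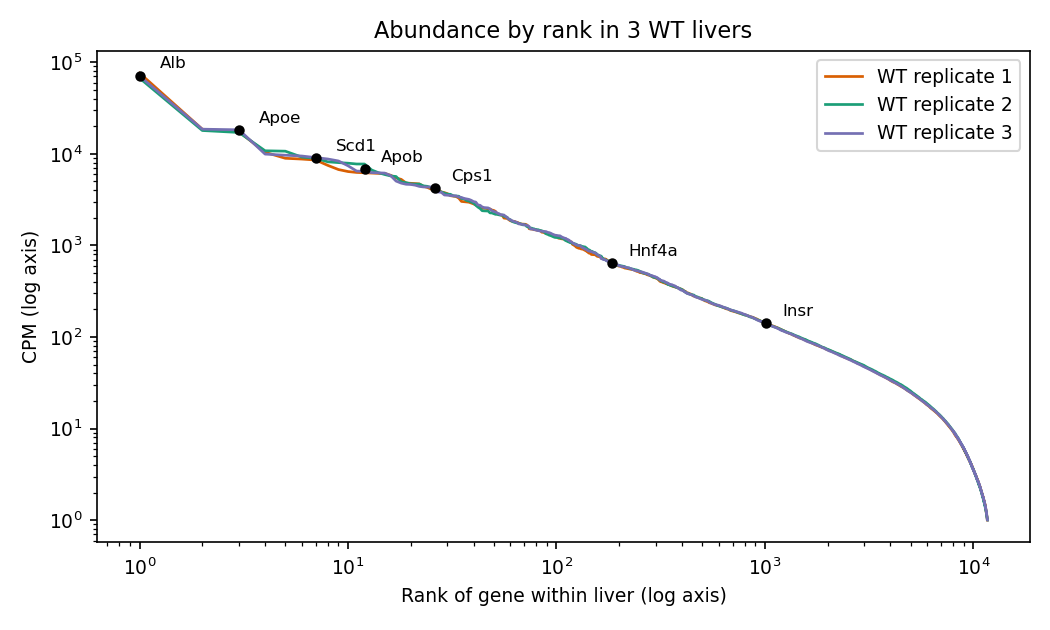
CPM of each expressed gene (log axis) against its rank within its own liver (log axis), one line per WT liver, with 7 genes marked at their mean CPM and the rank of that mean. The 3 lines nearly coincide, from Alb at 71242 CPM down to the limit of 1 CPM.

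Secreted proteins supplied 15 of the 20 most abundant transcripts and the mitochondrial genome 4. In order of CPM the secreted ones were Alb at 71242 ± 4551, the lipoprotein ligand Apoe at 17984 ± 776, the serpin Serpina3k at 9365 ± 1679 and the major urinary protein Mup3 at 8989 ± 77.8. Serpina1e, of the alpha-1-antitrypsin family, followed at 8870 ± 2412 and Apoa1, the main protein of high-density lipoprotein, at 8269 ± 333. Fetuin A (Ahsg) was at 7291 ± 511, complement C3 at 6824 ± 1034 and Apob, the backbone of very low-density lipoprotein, at 6823 ± 1214. The protease inhibitor Pzp was at 6183 ± 436, the vitamin D carrier Gc at 6122 ± 163 and the thyroid hormone carrier Ttr at 6111 ± 342. Fibrinogen alpha (Fga) was at 5037 ± 620, Mup20, the pheromone darcin, at 4889 ± 491 and Selenop, which carries selenium, at 4675 ± 507. Between neighbours in this list the gaps were often smaller than the SD, and 16 of the 20 were in the top 20 of every liver.

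The 4 mitochondrial transcripts encode membrane subunits of the respiratory chain. They were mt-Co1 at 17985 ± 586 CPM, mt-Cytb at 9146 ± 354, mt-Nd2 at 6272 ± 187 and mt-Nd1 at 4639 ± 166. The remaining gene was Scd1, the stearoyl-CoA desaturase of fat synthesis, at 10396, 7742 and 8781 CPM.

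Dividing by gene length changed this order, since longer transcripts give more fragments. On the TPM scale 14 of the same 20 genes remained in the top 20, and that top 20 held 13 secreted and 6 mitochondrial genes. Alb remained first at 78052 ± 4729 TPM. Apoa2, a short apolipoprotein of high-density lipoprotein, moved from rank 21 by CPM to rank 3, at 21778 ± 1305 TPM. Apob, whose transcript is very long, moved from rank 12 to rank 93, at 1258 ± 234 TPM. The order per length rests on merged exon lengths from a newer gene annotation than the counts, so ranks close together are uncertain.

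Promoter sequences are shown for the most abundant secreted genes. The next lines show the 250 bases upstream of the start of the 4 highest secreted genes with 1 start in the promoter table, from RefSeq on GRCm38.p6. They are Alb at chr5:90460620-90460869 on the plus strand, Mup3 at chr4:62087318-62087567 on the minus strand, Serpina1e at chr12:103956898-103957147 on the minus strand and Apoa1 at chr9:46228380-46228629 on the plus strand. Capitals mark matches, on either strand, to GTTAAT, which is part of the HNF1 motif, to TTGCNNAA, which resembles the C/EBP motif, and to CCAAT. Overlapping matches run together.
Alb: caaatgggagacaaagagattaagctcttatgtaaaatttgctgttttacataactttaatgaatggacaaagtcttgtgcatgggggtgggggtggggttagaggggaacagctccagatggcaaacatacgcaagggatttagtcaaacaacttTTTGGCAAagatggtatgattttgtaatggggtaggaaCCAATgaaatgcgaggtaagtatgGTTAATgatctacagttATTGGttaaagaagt
Mup3: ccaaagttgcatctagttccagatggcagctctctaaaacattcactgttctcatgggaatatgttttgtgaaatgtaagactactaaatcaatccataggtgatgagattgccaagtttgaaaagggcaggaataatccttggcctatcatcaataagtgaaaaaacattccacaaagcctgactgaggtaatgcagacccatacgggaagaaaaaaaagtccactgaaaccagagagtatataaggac
Serpina1e: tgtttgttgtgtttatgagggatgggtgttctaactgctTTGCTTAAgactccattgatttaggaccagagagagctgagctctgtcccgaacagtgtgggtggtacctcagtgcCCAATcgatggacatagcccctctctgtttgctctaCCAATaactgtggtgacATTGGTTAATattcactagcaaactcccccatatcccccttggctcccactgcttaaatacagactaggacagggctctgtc
Apoa1: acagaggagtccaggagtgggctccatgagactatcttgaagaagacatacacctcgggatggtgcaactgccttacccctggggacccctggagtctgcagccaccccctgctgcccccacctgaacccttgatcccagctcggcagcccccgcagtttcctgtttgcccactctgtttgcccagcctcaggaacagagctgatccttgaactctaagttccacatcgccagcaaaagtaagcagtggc

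The Alb window held 1 match to GTTAAT, starting 32 bases before the transcription start, and 1 to TTGCNNAA at 94 bases before it. Serpina1e held both as well, at 78 and 211 bases before the start. None of the 3 letter strings occurred in the windows of Mup3 and Apoa1. Over the whole table, 21028 promoters of 17116 genes could be matched. Genes of the mitochondrial genome were left out of the ranking, and a gene could have more than 1 promoter. Among the 50 most abundant genes 38 had a promoter, and GTTAAT was present in 14 of their 45 promoters (31.1%). Among the top 100 it was present in 18 of 91 promoters (19.8%) of 77 genes, and further down to rank 500 in 8.43%. It was present in 4.35% of the promoters of all expressed genes and in 5.61% of all promoters in the table. TTGCNNAA followed the same order, with 33.3%, 23.1%, 11.8%, 7.90% and 8.95%. Ribosomal protein promoters had 4.23% and 5.63% for these strings.

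Base composition differed along the same order. Median GC content was 50.4% in the top 100 and 59.6% in expressed genes, and the median ratio of observed to predicted CpG was 0.267 against 0.717. Among expressed genes with a GC content of 44.8% to 57.4%, the middle of the top 100, GTTAAT was present in 6.47% and TTGCNNAA in 12.2%. TATAAA, read on the gene's own strand, was in 19.8% of top 100 promoters, 3.96% of those of expressed genes and 5.86% of the group of like GC content. These are counts of letters and say nothing of whether a factor binds there.

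Sorted by function, secreted proteins took 28.2 ± 0.486% of all counts, mitochondrial genes 9.29 ± 0.152%, enzymes of intermediary metabolism 9.29 ± 0.439% and drug-metabolizing enzymes 5.07 ± 0.163%. Translation took 2.41 ± 0.0778% and membrane transporters 2.36 ± 0.139%. All classes together held 58.7 ± 0.370% of counts in 1144 expressed genes. On the TPM scale the secreted share was 36.5 ± 0.628% and the mitochondrial share 13.8 ± 0.127%. The classes and their members were written by hand, so a share is that of the listed and matched genes and not of every gene with that role. Of 2279 members as written over all lists, 12 were not matched to a gene ID. The shares therefore lack Hmgcs1 of cholesterol synthesis, Klkb1 of coagulation, C1rb of complement and Hjv of iron storage.

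**Figure D2:**
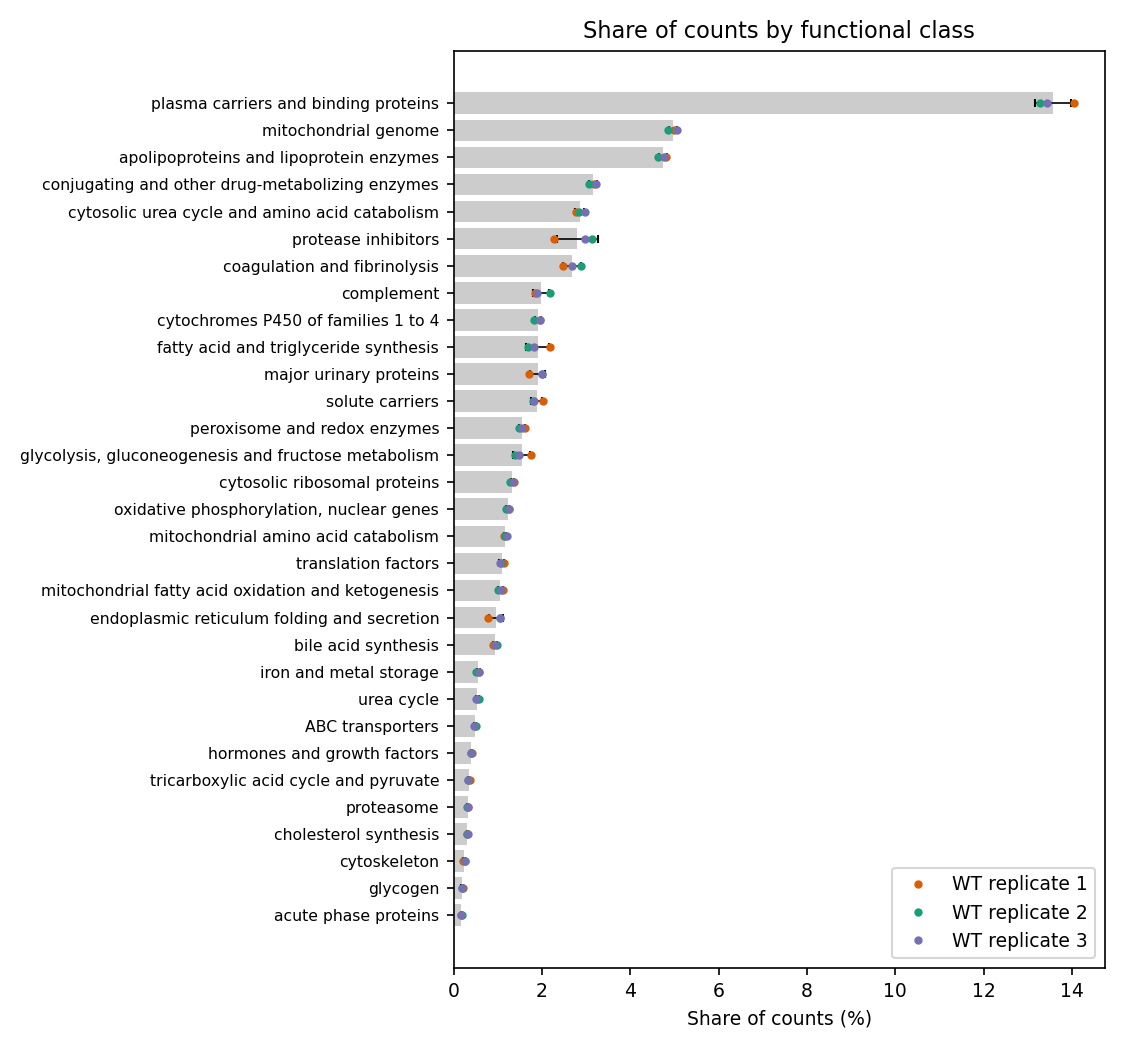
Share of counts (%) of each functional class; bars and error lines are the mean and SD of 3 WT livers, and points are single livers. Plasma carriers lead with 13.6%, and WT replicate 1 is the lowest of the 3 points for protease inhibitors (2.27%) and for endoplasmic reticulum folding (0.787%).

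Within the secreted class, carriers and binding proteins led with 13.6 ± 0.407% of counts, led themselves by Alb and Ahsg. Apolipoproteins and lipoprotein enzymes followed with 4.73 ± 0.0884%, where Apoe and Apoa1 were highest. Protease inhibitors took 2.79 ± 0.464%, with Serpina3k and Serpina1e in front, and coagulation factors 2.68 ± 0.202%, with Fga and Fgb, the fibrinogen alpha and beta chains. Fgb was at 4353 ± 587 CPM. Complement took 1.97 ± 0.180% and major urinary proteins 1.90 ± 0.175%. The highest complement genes were C3 and Clu, the latter a regulator of the terminal pathway at 1507 ± 33.8 CPM. The listed acute phase proteins took 0.167 ± 0.0130%, with the iron hormone Hamp at 667, 535 and 288 CPM and Orm1, orosomucoid, at 381, 572 and 526 CPM. Each gene was counted in 1 class only, so C3, Fga and Fgb are not in this share. On the TPM scale it was 0.552 ± 0.105%. Hormones and growth factors took 0.401 ± 0.0113%, led by Igfbp4 at 1339 ± 153 CPM and Igf1, the growth hormone effector, at 574 ± 74.2 CPM. Members of the Serpina1, Serpina3 and Mup families are near-identical copies whose reads may have been split or dropped, so single members are uncertain.

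Of the mitochondrial share, the mitochondrial genome itself made up 4.97 ± 0.0984% of counts. Nuclear genes of oxidative phosphorylation took 1.22 ± 0.0388%, headed by the ATP synthase subunits Atp5b at 1317 ± 21.0 CPM and Atp5a1 at 1054 ± 21.0 CPM. Amino acid catabolism in mitochondria took 1.17 ± 0.0264%, with Aldh2, which oxidizes acetaldehyde, at 2301 ± 147 CPM and Glud1, glutamate dehydrogenase, at 1383 ± 8.98 CPM. Fatty acid oxidation and ketogenesis took 1.06 ± 0.0463%, where Acsl1, which activates fatty acids, was at 1235 ± 143 CPM. The mitochondrial steps of the urea cycle took 0.538 ± 0.0404%, most of it Cps1, carbamoyl phosphate synthetase, at 4230 ± 424 CPM, with Otc at 506.8 ± 19.0 CPM. The tricarboxylic acid cycle and pyruvate enzymes together took 0.335 ± 0.0224%, with Pcx, pyruvate carboxylase, and Suclg2, a succinyl-CoA ligase subunit, highest.

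Among enzymes outside mitochondria, the cytosolic urea cycle and amino acid catabolism led with 2.85 ± 0.104%. Ass1 was at 3062 ± 142 CPM, and Bhmt, which remakes methionine from homocysteine, was at 1322, 3230 and 3259 CPM, lowest in WT replicate 1. Fat synthesis took 1.90 ± 0.252%, through Scd1 and Fabp1, the liver fatty acid binding protein at 3330 ± 437 CPM. Peroxisome and redox enzymes took 1.55 ± 0.0748%, with catalase (Cat) at 3264 ± 245 CPM. Glycolysis, gluconeogenesis and fructose metabolism took 1.54 ± 0.194%. Pck1, which commits carbon to glucose, was at 3673, 2017 and 2764 CPM, highest in WT replicate 1. Bile acid synthesis took 0.940 ± 0.0419%, led by Scp2, a sterol carrier, and Akr1c6, a steroid dehydrogenase. Cholesterol synthesis took 0.311 ± 0.00973%, with Sc5d, an enzyme of the last steps, among the highest. Glycogen metabolism took 0.192 ± 0.0183%, led by the phosphorylase Pygl and by Ugp2, which makes UDP-glucose.

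Drug metabolism split into conjugating and other enzymes with 3.16 ± 0.0886% and cytochromes P450 of the first 4 families with 1.91 ± 0.0745%. Of 72 P450 genes, 42 were expressed and 12 had no count in any liver. Cyp2e1 led at 4358 ± 435 CPM, followed by Cyp3a11, which oxidizes many drugs, at 2719 ± 314 CPM. Mgst1, a membrane glutathione transferase, and Ces1c, a carboxylesterase, led the conjugating group at 2548 ± 143 and 2369 ± 157 CPM. Among other classes, ribosomal proteins took 1.32 ± 0.0379%, translation factors 1.09 ± 0.0531%, folding and secretion machinery of the endoplasmic reticulum 0.961 ± 0.151% and iron and metal storage 0.553 ± 0.0361%. Their leading genes were Rps2 and Rpl4 of the ribosome, Eef1a1 and Eef2 of elongation, the disulfide isomerase P4hb and the chaperone Hspa5, and the ferritins Ftl1 and Fth1. Proteasome genes took 0.315 ± 0.0133% with Psmd2 and Psmb7 highest, and the listed cytoskeleton genes 0.240 ± 0.0182% with Actb and Krt8 highest. Solute carriers took 1.88 ± 0.133%, led by the amino acid carrier Slc38a3 and the fatty acid carrier Slc27a2. ABC transporters took 0.486 ± 0.0173%, led by Abcb11, the bile salt pump, and Abcd3 of peroxisomes.

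Nuclear receptors, which turn on genes in response to hormones and lipids, were expressed in 36 of 49 cases. Hnf4a, the receptor that defines hepatocytes, was highest at 364, 327 and 325 TPM. Rxra, the common partner of many receptors, followed at 244, 212 and 189 TPM, below Hnf4a in every liver. Next came the bile acid receptor Nr1h4 at 153, 126 and 124 TPM and Nr2f6, an orphan receptor, at 120, 139 and 128 TPM. These ranges overlap, and their order turned when the longest transcript was used as the length. Nr1h3, the liver X receptor, was nearly level at 101.5, 106 and 100.9 TPM. Nr1d1, the clock repressor REV-ERB alpha, was at 158, 71.7 and 78.9 TPM, highest in WT replicate 1. The drug receptor Nr1i3 was at 109, 69.2 and 98.7 TPM, and Nr0b2, the bile acid-induced repressor SHP, was at 66.1, 104 and 85.6 TPM. From Nr1h3 down to Nr0b2 the ranges of neighbours overlap. No count was found in any liver for Rorb, Nr2e3, Nr2e1, Pgr, Nr5a1 and Nr0b1, which are known from retina, brain and reproductive or steroid-making tissue.

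Of 50 liver-enriched factors 48 were expressed. Cebpa, which drives metabolic genes, was at 558, 484 and 503 TPM, and the stress factor Atf5 at 502, 482 and 513 TPM. Their ranges overlap, and Atf5 came first with the longest transcript as length. With the median transcript length Hnf4a came first at 852 TPM, and Cebpa was at 204.7 TPM. Creb3l3, a membrane-bound factor of lipid metabolism, stood below Hnf4a at 257, 290 and 292 TPM. Mlxipl, the glucose-sensing factor ChREBP, was at 155, 226 and 218 TPM, lowest in WT replicate 1. Xbp1, of the unfolded protein response, was at 154, 208 and 159 TPM, Cebpb, of the acute phase, at 157, 174 and 153 TPM, and the inhibitor Id2 at 141, 166 and 151 TPM, and the ranges of these neighbours overlap. Factors that define other lineages were absent or nearly so. Of 30 such genes 2 were expressed, Hand2 at 5.46 ± 1.23 CPM and Spi1, the macrophage factor PU.1, at 5.81 ± 1.27 CPM, and 18 had no count. Of 38 Hox genes, which pattern the body axis, 1 was expressed (Hoxb4), and 21 had no count.

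**Figure D3:**
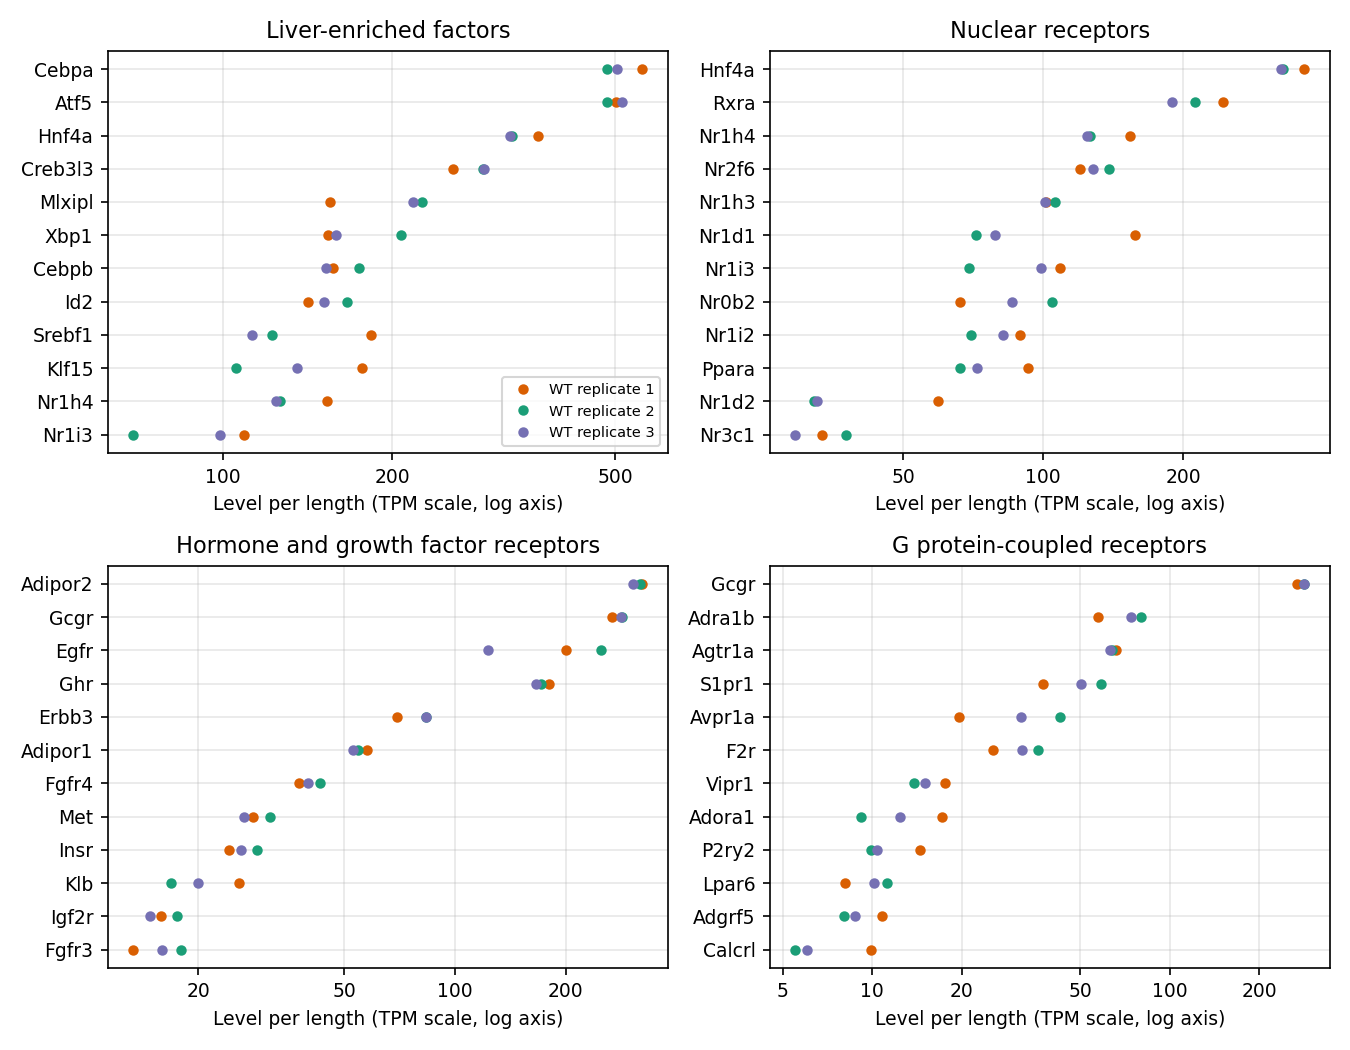
Levels per length (TPM scale, log axes that differ between panels) of the 12 highest liver-enriched factors, nuclear receptors, hormone and growth factor receptors and G protein-coupled receptors; each point is 1 WT liver. Hnf4a lies above every other nuclear receptor in all 3 livers, and Gcgr lies above every other G protein-coupled receptor listed.

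Among hormone and growth factor receptors 30 of 35 were expressed. The adiponectin receptor Adipor2 was highest at 323, 318 and 305 TPM, with Gcgr, the glucagon receptor, at 268, 284 and 283 TPM. The epidermal growth factor receptor Egfr was at 200, 250 and 123.02 TPM, and the growth hormone receptor Ghr at 180, 171 and 166 TPM. The range of Egfr spanned all 3 values of Ghr, and with the longest transcript as length Ghr came second. The order at the top depends on the length, since with the median transcript length Egfr came first at 1089 TPM, ahead of Ghr at 473.0 and Adipor2 at 279.8 TPM. Erbb3, a partner of other ErbB receptors, was at 78.8 ± 8.24 TPM, Adipor1 at 54.9 ± 2.46, Fgfr4, the receptor of the bile acid-induced hormone FGF15, at 40.1 ± 2.69 and Met, the receptor of hepatocyte growth factor, at 28.8 ± 2.39. Insr, the insulin receptor, was next at 26.5 ± 2.29 TPM, while the related Igf1r was below the limit at 0.810, 0.891 and 0.581 CPM. Gipr, a receptor of a gut hormone, Mc4r, a receptor known from brain, and Tshr, the thyrotropin receptor, had no count.

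Receptors that clear proteins and lipoproteins included the highest values of the receptor lists on this scale. Pigr, which carries immunoglobulin A into bile, was at 763, 937 and 804 TPM. Both chains of the asialoglycoprotein receptor were high, Asgr1 at 676 ± 32.1 and Asgr2 at 350 ± 12.7 TPM. Tfr2, which senses iron-loaded transferrin, was at 285 ± 11.7, the immunoglobulin and albumin receptor Fcgrt at 202 ± 25.8 and Lrp1, which clears remnant lipoproteins, at 146 ± 28.9 TPM. This order also depends on the length. With the median transcript length Pigr was at 1548, Lrp1 at 1212, Tfr2 at 523 and Asgr1 at 327 TPM. Scarb1, the receptor of high-density lipoprotein, was at 54.0 ± 3.85 TPM. In all, 22 of 25 were expressed.

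Of 30 cytokine receptors 26 were expressed. Lifr, the receptor of leukemia inhibitory factor, was at 66.6, 147 and 85.3 TPM and overlapped with Tnfrsf1a, the first tumor necrosis factor receptor, at 78.0, 70.8 and 69.5 TPM. Ifnar2 of the type I interferon receptor was at 46.5 ± 1.77 TPM, Il1rap, shared by interleukin-1 receptors, at 32.0 ± 1.19 and Il6st, the signal chain gp130, at 30.1 ± 2.62. Il13ra1 followed at 26.0 ± 3.32 TPM, Csf1r, a macrophage receptor, at 22.9 ± 5.40 and Tnfrsf1b at 22.2 ± 5.02, with overlapping ranges. This order too depends on the length, since with the longest transcript Il1rap, at 66.0 TPM, came before Ifnar2, at 41.6 TPM. Among 52 G protein-coupled receptors 27 were expressed. Beneath Gcgr, which with the median transcript length fell to 133.0 TPM against 145.4 TPM for Agtr1a, came the alpha-1B adrenergic receptor Adra1b at 57.6, 80.3 and 74.1 TPM and the angiotensin receptor Agtr1a at 66.3, 63.8 and 63.0 TPM. The lipid receptor S1pr1 was at 48.9 ± 10.8, the vasopressin receptor Avpr1a at 31.4 ± 11.6, the thrombin receptor F2r at 31.1 ± 5.31, Vipr1 at 15.5 ± 1.90 and the adenosine receptor Adora1 at 12.9 ± 4.02 TPM. Drd1, Drd2 and Htr2b, receptors of dopamine and serotonin, had no count.

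Spread between livers was measured for each gene as the coefficient of variation (CV) of CPM with the counting part taken off, so 0 means no spread beyond counting. The median over the 11675 expressed genes was 8.06%, and 90% of genes lay below 23.1%. For 1491 genes (12.8%) no spread beyond counting was found, and for 108 genes (0.925%) it passed 50%. WT replicate 1 was the liver farthest from the other two in 85 of these 108 genes (78.7%), against 50.2% of all expressed genes. Without that library the median was 3.68% and 33 genes passed 50%. Without WT replicate 2 or 3, which leaves WT replicate 1 as part of a pair, the median was 7.13% and 8.09%, and 159 and 229 genes passed 50%. These values from pairs compare with each other and not directly with those of 3 livers. With 3 livers each single value rests on 2 degrees of freedom and is imprecise.

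The narrowest of the genes with a mean of at least 10 CPM, ties being ordered by plain CV, was Ndrg2, a gene of cell differentiation and stress, at 1201, 1202 and 1201 CPM. Proc, the anticoagulant protein C, was at 492, 493 and 493 CPM, and Pccb, a subunit of propionyl-CoA carboxylase, at 192, 193 and 192 CPM. Pcbp1, an RNA-binding protein, was at 194, 194 and 195 CPM. Adgra3, Gpn1, Acad10 and Dctn6 completed the 8, at lower levels between 13.02 and 40.7 CPM. A spread of 0 was found in 675 of 7684 genes at this level, so these 8 are examples of a large group. In whole lists, ribosomal proteins had a median spread of 4.10%, mitochondrial amino acid catabolism 4.86% and nuclear oxidative phosphorylation genes 5.30%, each below the 8.06% of all expressed genes.

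**Figure D4:**
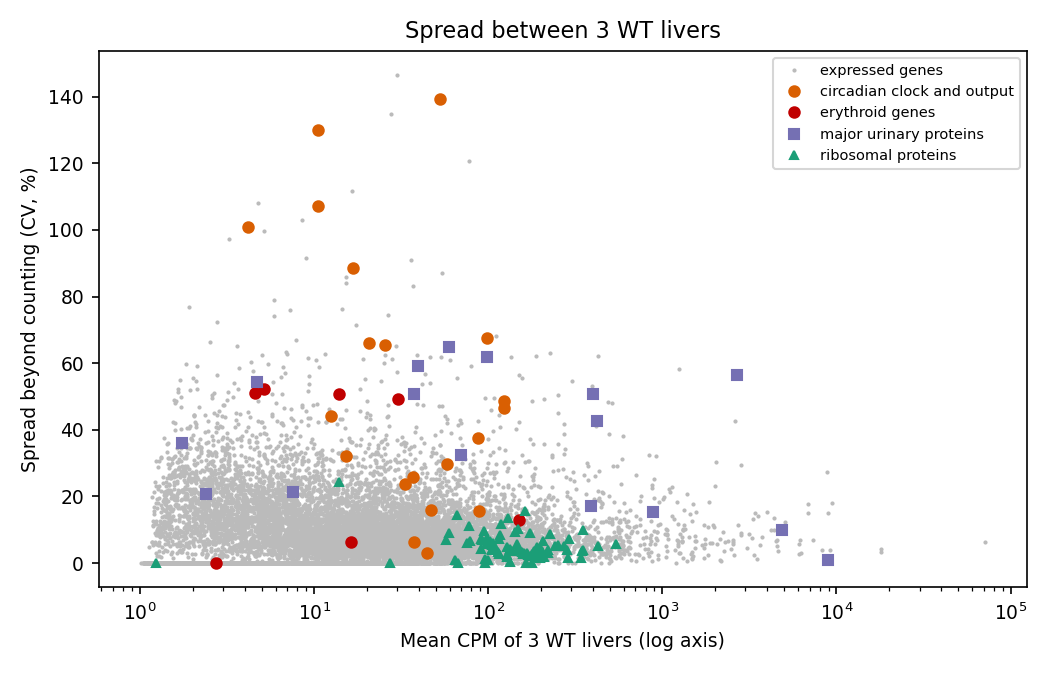
Spread between the 3 WT livers (CV beyond counting, %) against mean CPM (log axis) for each expressed gene, with 4 lists marked. Clock genes and major urinary proteins lie high, with list medians of 45.3% and 39.4%, and ribosomal proteins lie low, with a median of 4.10%.

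The 15 widest genes included 4 clock or clock output genes, Dbp, Usp2, Per3 and Per1. Rgs16, a brake on G protein signals (ENSMUSG00000026475), was at 80.1, 5.31 and 3.88 CPM. Dbp, a clock output factor (ENSMUSG00000059824), was at 137, 5.53 and 15.2 CPM, and Mfsd2a, a carrier of lysophospholipids, at 71.0, 3.81 and 8.61 CPM. In all of these WT replicate 1 was high and the other livers were low. The deubiquitinase Usp2 was at 26.4, 2.44 and 2.80 CPM, Cyp4a14, a fatty acid hydroxylase, at 185, 12.0 and 36.0 CPM, and the period genes Per3 and Per1 at 23.3, 2.18 and 5.99 and at 32.2, 2.92 and 14.8 CPM. Serpina7, a thyroxine carrier, Abcd2, a peroxisomal transporter, and Coq10b, a coenzyme Q binding protein, were also highest in WT replicate 1, at 108, 29.9 and 49.2 CPM.

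The other 5 of the widest genes were not highest there. Gadd45g, a growth arrest gene, was at 4.17, 34.0 and 69.5 CPM, the factor Foxq1 at 7.70, 34.1 and 68.9 CPM and Cyp26a1, which degrades retinoic acid, at 5.69, 9.93 and 30.3 CPM. All 3 were lowest in WT replicate 1 and highest in WT replicate 3. Onecut1, the hepatocyte factor HNF6, was at 6.16, 37.7 and 5.57 CPM and Scara5, a ferritin receptor, at 5.02, 26.6 and 11.7 CPM, both highest in WT replicate 2. Without WT replicate 1, 6 of the 15 remained among the 15 widest.

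Clock genes form a loop in which Clock and Arntl (BMAL1) turn on the Per, Cry and Nr1d genes through E-box sequences, and these repress them in turn. The 20 expressed clock and output genes had a median spread of 45.3%, against 8.06% of all expressed genes. WT replicate 1 was highest for 15 of the 20, against 39.3% of all expressed genes. Arntl was at 5.29, 31.3 and 25.2 CPM, Clock at 40.5, 74.97 and 58.9, Cry1 at 10.03, 19.9 and 15.7 and Nfil3, the factor that opposes Dbp, at 28.6, 47.3 and 34.4. Those 4 were lowest in WT replicate 1 and highest in replicate 2. The opposite pattern was seen in Nr1d1 at 189, 85.1 and 95.5 CPM, Nr1d2 at 125, 67.1 and 69.5, Per2 at 18.5, 7.64 and 11.3 and Tef, a relative of Dbp, at 174, 49.5 and 71.7. Wee1, a cell cycle kinase, was at 8.97, 1.35 and 2.14 CPM and Noct, a daily phosphatase, at 43.3, 9.99 and 23.5 CPM. Cry2, at 40.0, 35.3 and 36.5 CPM, was nearly level. For Per1, Per3 and Dbp, replicate 3 was also higher than replicate 2, by 5.06-fold, 2.75-fold and 2.75-fold. Without WT replicate 1 the median of the list was 15.6%, against 3.68% of all expressed genes. The labels give no hour of collection, and its part was not tested.

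**Figure D5:**
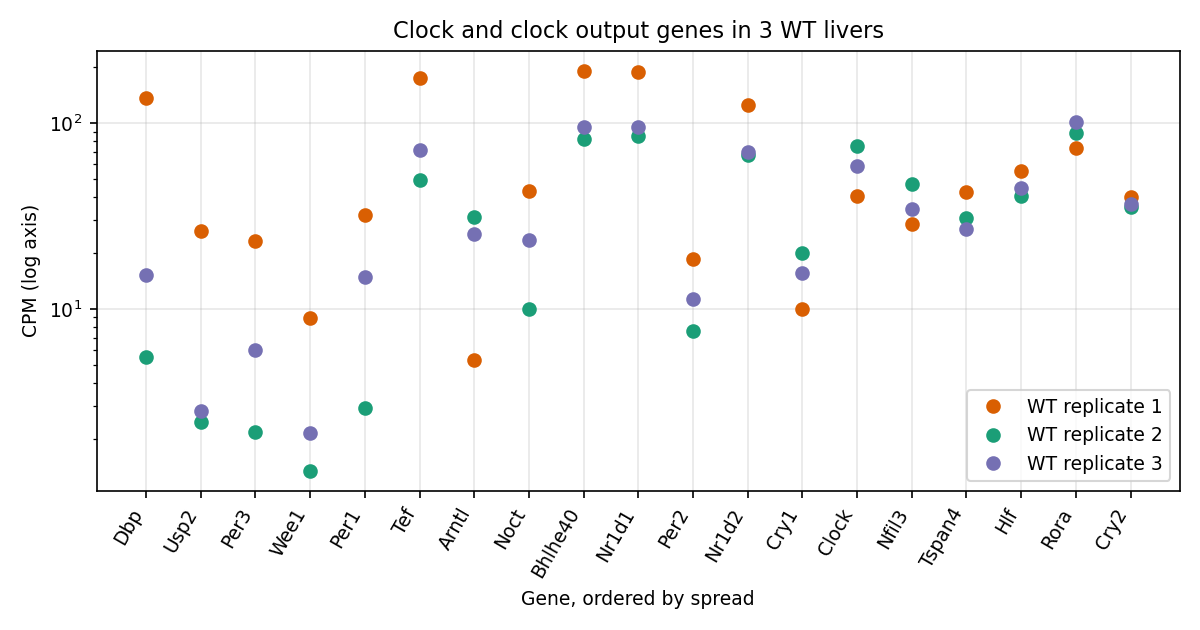
CPM (log axis) of the 19 widest of the 20 expressed clock and clock output genes in the 3 WT livers, ordered by spread from left to right. WT replicate 1 is the highest point for Dbp, Per1 and Per3 and the lowest for Arntl, Clock, Cry1 and Nfil3.

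Promoters of these genes were searched for the E-box letters CACGTG after their values had been seen. The string was present in 5 of 22 promoters (22.7%), which belong to 4 of 16 genes, against 8.24% of promoters of expressed genes and 6.81% of all promoters. The 30 bases around each match are shown next, from RefSeq on GRCm38.p6, with the E-box in capitals. They lie at chr7:141476317-141476346 for Tspan4, chr10:85185097-85185126 for Cry1, chr11:69098771-69098800 for Per1, and at chr15:81802534-81802563 and chr15:81811264-81811293 for the 2 starts of Tef. Cry1 is on the minus strand and the others on the plus strand.
Tspan4: cccccatggagcCACGTGcagagccacgag
Cry1: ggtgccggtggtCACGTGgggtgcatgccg
Per1: agcacccaagtcCACGTGcagggatgtgtg
Tef, first start: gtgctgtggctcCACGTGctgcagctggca
Tef, second start: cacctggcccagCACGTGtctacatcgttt
Per1 and Tef were highest in WT replicate 1, as was Tspan4 at 42.4, 31.0 and 27.0 CPM, and Cry1 was lowest there. A window of this length holds only a small part of the sequence near a gene.

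Other lists with a wide spread were those of blood, urinary proteins and nutrition. The 7 expressed erythroid genes had a median of 49.4%, which was the value of the globin Hbb-bs. Only the globins spread this widely, with Hbb-bt at 2.06, 7.16 and 6.18 CPM and Hba-a2 at 1.93, 6.42 and 5.31 CPM. Outside the globins, Alas2 had a spread of 12.97% and Bpgm one of 6.22%, and Klf1 had none beyond counting. Alas2 had the highest counts of the matched members, at 131, 152 and 170 CPM. The globins are near-identical copies whose reads may have been split or dropped, so their levels beside Alas2 are uncertain. Hbb-b1, Hbb-b2 and Ahsp of the list were not matched. In WT replicate 1, 6 of the 7 genes were lowest, against 40.5% of all expressed genes. Fasting-responsive genes had a median of 25.5% over 22 genes, with Cyp4a14 and then Vnn1, a pantetheinase, at 50.6, 13.5 and 24.0 CPM. Lipogenic genes that respond to feeding had a median of 24.6% over 17 genes, with Thrsp at 319, 99.4 and 143 CPM and Lpin2, a phosphatidate phosphatase, at 388, 185 and 241 CPM. WT replicate 1 was highest for 14 of the 22 fasting genes and for 12 of the 17 lipogenic ones, against 39.3% of all expressed genes. Not all fasting genes shared this. Igfbp1, which binds insulin-like growth factors, was at 49.3, 104 and 56.9 CPM and Pdk4, which blocks pyruvate oxidation, at 13.1, 13.7 and 21.7 CPM, both lowest in WT replicate 1 and chosen after their values were seen.

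Major urinary proteins, pheromone carriers that mice excrete in urine, had a median spread of 39.4% over 16 genes, and 15 of the 16 were lowest in WT replicate 1, again against 40.5% of all expressed genes. Mup16 was at 15.1, 86.1 and 76.7 CPM, Mup1 at 28.5, 139 and 127 CPM and Mup7 at 936, 3629 and 3502 CPM. By contrast Mup3 was at 8939, 8949 and 9078 CPM, and Mup20 was highest in WT replicate 1 at 5452, 4671 and 4545 CPM. Of 16 expressed male-biased genes outside this family 14 were also lowest there (40.5% of all expressed genes), and their summed levels were 13527, 21263 and 19042 CPM. Elovl3, a fatty acid elongase, was at 219, 661 and 572 CPM, and Cyp7b1, a hydroxylase of oxysterols, was at 302, 539 and 460 CPM, both chosen after their values were seen. Cish, a target and brake of growth hormone signals chosen in the same way, was at 7.82, 38.7 and 30.03 CPM. The 2 expressed female-biased genes were Ntrk2, a neurotrophin receptor, at 5.60, 2.01 and 2.77 CPM and the factor Tox at 5.11, 1.48 and 1.74 CPM, both highest in WT replicate 1. Acot3, an acyl-CoA thioesterase of the same list that missed the limit in WT replicate 2, was at 9.51, 0.436 and 2.51 CPM.

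Folding and secretion genes of the endoplasmic reticulum were lowest in WT replicate 1 in 36 of 44 cases, against 40.5% of all expressed genes, although their median spread was 10.5%. Hspa5, the chaperone BiP, was at 577, 1115 and 1051 CPM and Hsp90b1 at 634, 1033 and 1013 CPM. Sdf2l1 and Creld2, 2 smaller genes of the same machinery chosen after their values were seen, were at 15.7, 54.5 and 54.7 CPM and at 17.3, 60.2 and 61.0 CPM. The share of this class was 0.787% in WT replicate 1 and 1.05% in each of the others. The list of heat shock chaperones and their regulators, some of them mitochondrial, had a median of 11.6% over 22 genes, widest in Cryab at 5.35, 2.43 and 2.93 CPM and in Hsp90aa1 at 109, 196 and 236 CPM.

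Acute phase proteins had a median spread of 23.6% over 10 genes and Kupffer cell markers one of 19.5% over 18. Immediate early genes, which answer stimuli within minutes, had a median of 17.9% over 20 genes, widest in Myc at 2.39, 4.05 and 11.1 CPM and Klf4 at 3.09, 1.63 and 1.37 CPM. Cell cycle genes had a median of 13.9% over 19, with Cdc20 at 1.18, 1.52 and 3.09 CPM and Kif20a at 1.16, 1.14 and 2.32 CPM. Antigen presentation genes had a median of 9.53% over 21, with H2-Aa at 38.3, 15.6 and 24.5 CPM and H2-Q1 at 7.39, 3.13 and 4.62 CPM. Interferon-stimulated genes had a median of 11.3% over 42, with Ifi27l2a at 4.38, 2.08 and 2.09 CPM and Oas3 at 2.05, 1.10 and 1.14 CPM.

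A trend with gene length also ran between the libraries. Expressed genes were put in 5 equal groups by length. In the group of longest genes, WT replicate 2 was higher than the mean of the others by a median of 0.11 on the log2 scale, and it was the highest liver for 56.2% of them. Among the shortest it was lower, with a median of -0.07, and it was highest for 17.9%. WT replicate 2 was lowest for 67 of 80 nuclear oxidative phosphorylation genes, 65 of 83 ribosomal protein genes and 27 of 36 proteasome genes, against 29.3% of all expressed genes. In other lists of short genes the count varied. WT replicate 2 was lowest for 16 of 24 apolipoproteins and lipoprotein enzymes and for 10 of 19 genes of the mitochondrial genome. It was lowest for 0 of 16 major urinary proteins, 0 of 7 erythroid genes and 2 of 10 acute phase proteins. In those last lists WT replicate 1 was lowest for 15, 6 and 6 genes, against 40.5% of all expressed genes. The part of the length trend in these counts was not tested.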

How the data were processed

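The deposited table holds counts per Ensembl gene ID, made by the authors without normalization. STAR, Picard and HTSeq and the build mm9 are named per the submitters' processing notes, while for versions, settings, annotation and strand setting the details remain not given in the sources used here. Overlapping genes on opposite strands and near-identical copies (Mup, Serpina1, Serpina3, Cyp4a, globin and H2 genes) are therefore uncertain. Only the 3 WT columns were used, each matched by title. IDs without a symbol (5072 of 37991) held 0.345% to 0.430% of counts. CPM used TMM-scaled libraries (edgeR 4.0.16, R 4.3.3). The TPM scale divides counts by merged exon length from GENCODE M21, a GRCm38 annotation, for 32938 IDs. Whether all exons or only coding sequence was counted is also not given, and the TPM scale assumes all exons. Spread is the CV of CPM with the counting part removed, over genes with at least 1 CPM in each liver, and its calculation was tested on simulated data. Where the counting part exceeded the variance, spread was set to 0, so a 0 does not show that a gene has no spread. The common CV that edgeR fitted to the expressed genes was 14.9%. With 1 group no test was made. Limits from counts cover counting error only, since PCR copies were not told apart. Promoters and motif searches used the RefSeq table for GRCm38.p6.

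Genes were named by rule: the 20 highest by CPM, the 2 highest of each class, the 8 highest of each factor and receptor list on the TPM scale with members at 0, the 2 highest of each marker list, the 15 widest and 8 narrowest in spread at a mean of at least 10 CPM without clone names, and the 2 widest of each spread list. Some genes that the rule names are not reported here. Other genes were chosen after their values were seen. The livers, lists and rules were chosen with earlier results of these data known. Alternatives were other scalings (DESeq2 1.42.0 size factors, library totals), filters, lengths, denominators, edgeR's dispersion and each liver left out.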

Additional observations from a re-analysis of the deposited data

How the results depend on the processing

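No paired analysis was possible because the results describe 1 group and come from no test. Library totals or DESeq2 size factors in place of TMM moved no result by more than the spread between livers. With median transcript length, Alb stood at 199326 on the TPM scale, since that length is shorter. With the mitochondrial genome out of the denominator, the secreted share was 29.7%, mitochondrial 4.55%, metabolic 9.77% and xenobiotic 5.33%. On length-scaled counts the secreted share was 36.5%, mitochondrial 13.8% and xenobiotic 5.23%. Counting any gene with a count gave 21546 genes in place of 11675. The median spread was 12.96% by edgeR's tagwise dispersion, which draws genes toward a common value, and the clock list median was then 29.1% in place of 45.3%. Over genes with at least 10 CPM in each liver the median spread was 7.10% and the clock list median 27.7%. Leaving out each liver in turn gave a median spread of 3.68% to 8.09% and a clock list median of 15.6% to 54.7%, both lowest without WT replicate 1. The absolute level of genes near 1 CPM is limited by depth, and 3 livers limit every SD.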
